A study of Mus musculus with 8 samples.

Results

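The antioxidant and glutathione enzymes were 49 of the 23366 genes in the deposited table. They were taken by symbol: the cytosolic and kappa-class glutathione transferases (Gsta, Gstk, Gstm, Gsto, Gstp and Gstt genes), the glutathione peroxidases, the peroxiredoxins other than Prdx4, the superoxide dismutases and the thioredoxin reductases, with Cat, Txn1, Txn2, Txnip, Hmox1, Nqo1, Gclc, Gclm, Gsr and Nfe2l2. RNA had been profiled in 8 libraries of about 1000 cells each, 4 of a sorted population named top and 4 of one named bottom. Both came from the pancreas of NOD mice, an inbred strain prone to autoimmune diabetes, at 8 to 10 weeks of age, and the labels name no treatment, transgene or deletion. The labels call both populations beta cells, the insulin-secreting cells of the islet, but do not say which measurement separated top from bottom. Libraries 1 and 2 of each population were in batch 1 and libraries 3 and 4 in batch 2. No label ties a library to an animal, so the spread behind each p-value is that between libraries, part of which may be technical.

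Glutathione is a tripeptide thiol whose synthesis is started by glutamate-cysteine ligase, made of the subunits Gclc and Gclm. Most glutathione peroxidases spend it on reducing peroxides, glutathione transferases attach it to reactive or foreign molecules, and the reductase Gsr restores it. Most peroxiredoxins reduce peroxides with electrons from thioredoxin, which the thioredoxin reductases keep reduced, while Txnip binds thioredoxin and blocks it. Superoxide dismutases turn superoxide into hydrogen peroxide, and catalase splits hydrogen peroxide in peroxisomes. The transcription factor NRF2, encoded by Nfe2l2, drives many of these genes through the antioxidant response element. Beta cells of rodents are known for low catalase and glutathione peroxidase activity, and intestinal epithelium and liver for high levels of glutathione transferases.

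To show the element through which NRF2 acts, the members' promoters were searched for it. Promoter sequences from 250 bases before to 50 after the transcription start were taken from RefSeq (build GRCm38.p6, matched by symbol) for 42 of the 49 members, 54 promoters in all. Both strands were searched for the antioxidant response element cores TGACNNNGC and TGAGNNNGC, and 14 of the 54 promoters (25.9%) held at least 1 of them, beside 27.8% of all 32851 promoters of the same length. The 2 shares were close. Stretches around a match are shown for Gstp1 and its neighbour Gstp2, for Prdx1, for the thioredoxin reductase Txnrd1 and for Nfe2l2 itself. They run 5′ to 3′ on the strand of the gene, with the match in capitals. It spans bases -74 to -66 from the start in Gstp1, -89 to -81 in Gstp2, -133 to -125 in Prdx1, -92 to -84 in Txnrd1 and -240 to -232 in Nfe2l2. In Prdx1 and Txnrd1 the core reads on the other strand.
Gstp1 (chr19:4037953-4038011, - strand): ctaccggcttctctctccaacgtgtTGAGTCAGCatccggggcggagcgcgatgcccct
Gstp2 (chr19:4042277-4042335, - strand): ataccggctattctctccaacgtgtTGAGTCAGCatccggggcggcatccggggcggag
Prdx1 (chr4:116685441-116685499, + strand): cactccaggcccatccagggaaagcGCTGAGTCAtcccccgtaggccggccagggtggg
Txnrd1 (chr10:82859089-82859147, + strand): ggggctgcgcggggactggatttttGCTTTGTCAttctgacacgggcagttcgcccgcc
Nfe2l2 (chr2:75704870-75704913, - strand): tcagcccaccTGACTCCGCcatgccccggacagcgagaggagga
Txnip has another element, the carbohydrate response element through which glucose raises it: CACGNG, 5 bases of any kind, and CACGNG again. This pattern was found in 0.0487% of all promoters and, among the members, in Txnip alone, where it spans bases -85 to -69.
Txnip (chr3:96557847-96557913, + strand): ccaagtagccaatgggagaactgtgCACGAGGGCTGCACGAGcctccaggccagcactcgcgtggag
A match describes the letters and does not show that a factor is bound.

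The libraries were first checked against their label and against other cell types. Total estimated counts ranged from 6657639 to 11262368 per library. Summed levels of 9 beta cell markers were 343230.0 to 504710.0 CPM (counts scaled to a common library total) in top and 38452 to 80833 in bottom. The beta cell factor Mafa, 1 of the 9, had 0 counts in all 8 libraries. Whether Mafa could be counted with the annotation used is not known, so this 0 is not read as absence. Alpha cell markers summed to 65543 to 138420 CPM in top and to 51299, 142471, 29157 and 43621 CPM in bottom 1 to bottom 4. In bottom 1 and bottom 2 the beta cell markers summed to less, 38452 and 80833 CPM. Delta cell markers summed to 2648 to 5296 CPM in top and 33383 to 57799.7 in bottom, and PP cell markers to 1196 to 2356 and 11342 to 91991. Immediate early and heat shock genes of cell dissociation summed to 3319 to 5804 and 5899 to 10014. In bulk RNA, fewer cells of a type cannot be told apart from less RNA per cell. Transcripts of intestinal epithelium set some libraries apart: 16 markers, all of them detected, summed to 2099.9, 189, 66.5 and 775 CPM in top 1 to top 4 and to 32398, 7707, 76.5 and 40.7 CPM in bottom 1 to bottom 4. Their part in the results that follow was not tested. For some of the results that turn on bottom 1 and bottom 2, values without these libraries are also given.

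Across the members, no gene was called different between the populations (edgeR quasi-likelihood test with the batch as a covariate, adjusted p under 0.05). The test ran on 38 members that passed the low-count filter, of 11721 genes, among which 0.282% were called higher and 0.162% lower in bottom. At an unadjusted p under 0.05, 7 members were higher in bottom and 0 lower: Cat, Gpx1, Gstp1, Gstt1, Gstt3, Txn1 and Prdx1. Over all genes 5.62% were higher and 4.63% lower at that p. DESeq2 called 4 members (Cat, Gpx1, Gstp1 and Gstt3), limma-trend 1 (Cat), edgeR with no filter on low counts 3 (Cat, Gpx1 and Gpx8) and edgeR on unscaled totals 1 (Gpx1), all of them higher in bottom. Called higher by the same tools were 3.27%, 0.665%, 0.782% and 0.469% of all genes, in that order. The fitted difference was positive, meaning higher in bottom, for 27 of the 38 members and for 50.1% of all tested genes, with a median log2 fold change of 0.45 against 0.00. The 11 members that did not pass were Gpx5, Gpx6, Gpx7, Gpx8, Gsta2, Gstm6, Gstp2, Gstt4, Hmox1, Sod3 and Txnrd3, and they are given by count. In the plot of fold changes the widest errors belonged to glutathione transferases and to Nqo1.

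**Figure D1:**
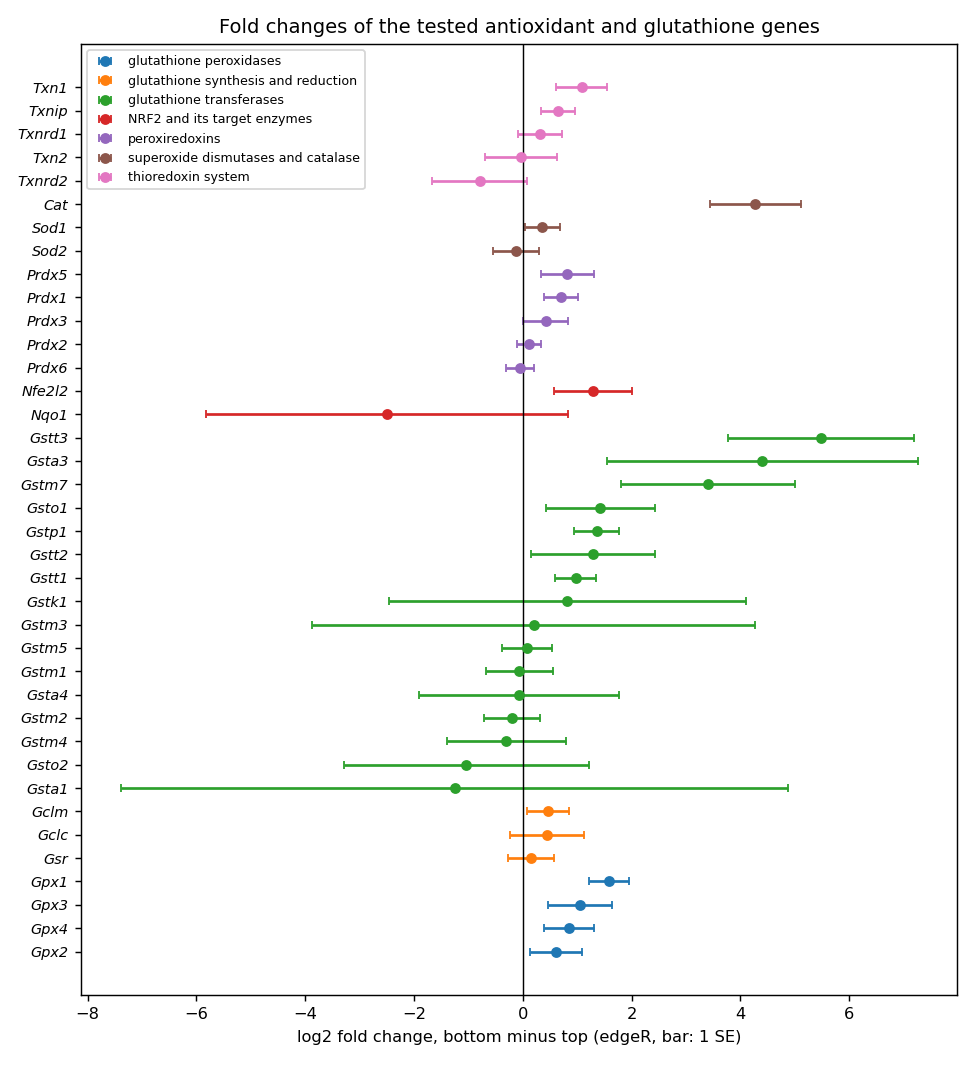
Fold changes of the 38 tested members, grouped by family (colours). The horizontal axis is the edgeR log2 fold change of bottom minus top, bars are 1 SE, and the vertical line marks no difference; Cat lies farthest from 0 relative to its error, and Gsta1, Gstm3, Nqo1 and Gstk1 have the widest bars.

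Much of the members' variation followed 1 library. Of the 38 tested members, 27 had their highest level in bottom 1, as did 20.2% of all tested genes. Glutathione transferases made up the largest part of that count, with 14 of 16 tested genes highest in bottom 1. The numbers were 2 of 2 for NRF2 and its target enzymes, 4 of 5 for peroxiredoxins and 3 of 4 for glutathione peroxidases. They were 2 of 5 for the thioredoxin system, 1 of 3 for glutathione synthesis and reduction and 1 of 3 for superoxide dismutases and catalase. Summed over all 20 transferase genes, the level was 669, 530.1, 574 and 537 CPM in top 1 to top 4 and 4436, 1364, 462 and 567 CPM in bottom 1 to bottom 4. Bottom 1 and bottom 2 thus lay above every top library, while bottom 3 and bottom 4 lay among or below them. Summed over all 49 members the level was 3275 to 3888 CPM in top and 13052, 7318, 3779 and 3964 CPM in bottom 1 to bottom 4. Without bottom 1 and bottom 2, the fitted difference was positive for 20 of 41 tested members, beside 51.6% of all genes. That fit keeps the batch term and has no bottom library in batch 1, so its difference is the one within batch 2. Without bottom 1 alone the fitted difference was positive for 26 of 40, beside 49.5%. Leaving out both lowered the log2 fold change of Txn1 (1.08 to 0.20), Prdx1 (0.70 to 0.21) and Gstt1 (0.97 to 0.47). It also lowered that of Gstp1 (1.36 to 0.54) and Gpx1 (1.59 to 1.06), while that of Cat (4.27 to 6.15) and Gstt3 (5.47 to 5.97) rose. Top 3 and top 4 held 0 and 4 counts of Cat and 0 and 0 of Gstt3, so both rises rest on few counts. Bottom 3 and bottom 4 held 17 and 1 counts of Gstt3. The bottom means fell, from 144 to 22.3 CPM for Cat and from 19.8 to 0.942 CPM for Gstt3. The 2 libraries with the largest transferase sums were also those with the most intestinal transcripts, and whether these transcripts account for the sums was not tested.

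**Figure D2:**
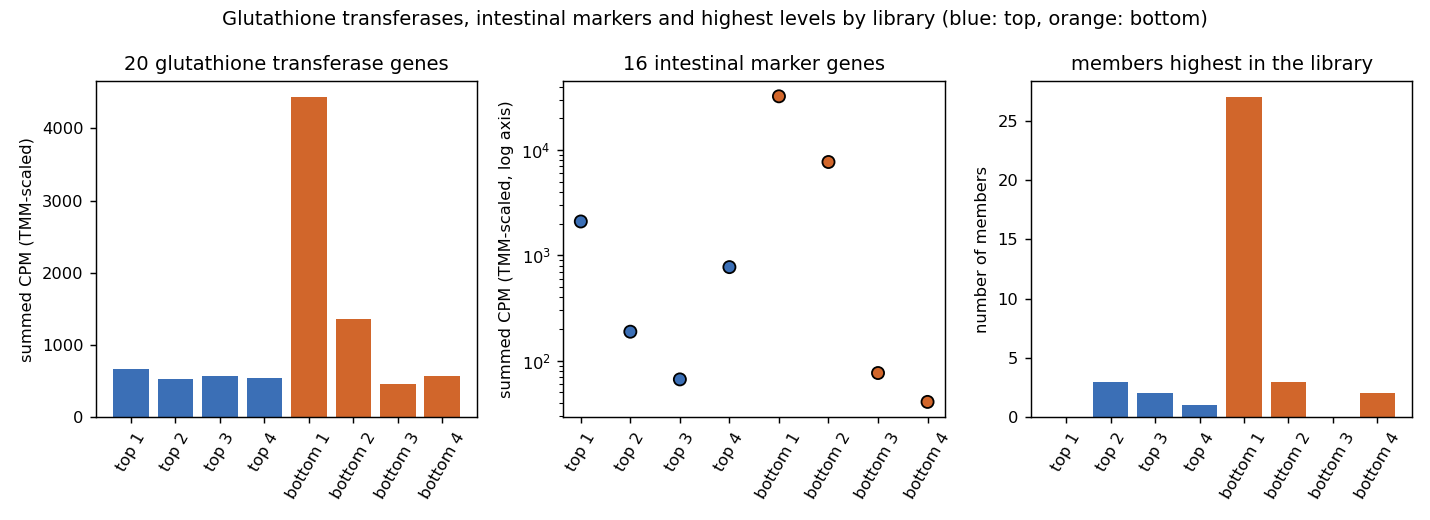
Summed CPM of the 20 glutathione transferase genes (left), summed CPM of 16 intestinal marker genes on a log axis (middle), and the number of tested members whose highest level lay in each library (right), for the 4 top (blue) and 4 bottom (orange) libraries. Bottom 1 leads all 3 panels, with 4436 CPM, 32398 CPM and 27 members.

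The batches gave different pictures. As the difference of mean log2(CPM + 1), bottom was above top for 36 of the 38 members in batch 1 and for 18 of 38 in batch 2, where over all 11721 genes the numbers were 5402 and 6044. The sign was the same in both batches for 20 members. In a test of the interaction of batch and population, 0 members and 0 genes were called (edgeR, lowest adjusted p among the members 0.499). At an unadjusted p under 0.05, 16 of the 38 members passed, beside 7.55% of all genes, and in 15 of these 16 the difference was smaller or turned in batch 2. The exception was Cat. Batch 1 holds both libraries rich in intestinal transcripts, so this contrast between batches cannot be told apart from them.

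**Figure D3:**
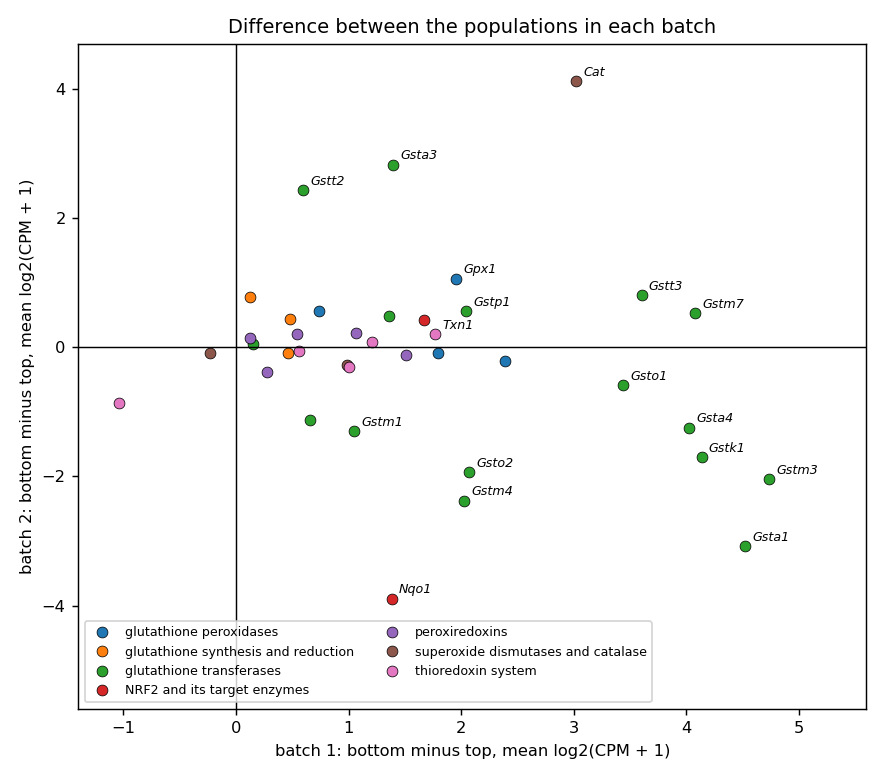
Difference between bottom and top in batch 1 (horizontal) and in batch 2 (vertical) for each tested member, as means of log2(CPM + 1) over 2 libraries per population, coloured by family. Points in the lower right were higher in bottom in batch 1 and lower in batch 2, and Gsta1, Gstm3, Gstk1, Gsta4 and Nqo1 lie there; Cat and Gpx1 were higher in bottom in both.

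Among the glutathione peroxidases, Gpx1, the cytosolic enzyme that reduces hydrogen peroxide, was higher in every bottom library than in any top library. It stood at 117, 169, 296 and 244 CPM in top 1 to top 4 and at 897, 333, 512 and 616 CPM in bottom 1 to bottom 4. The nearest libraries were bottom 2 and top 3. Its mean was 206 ± 79.2 CPM in top and 589 ± 236 in bottom (SD, n = 4), with edgeR log2 fold change 1.59 ± 0.37 (SE), adjusted p = 0.133, so it was not called. The 4 bottom libraries lay above the 4 top libraries for 2 of 38 tested members, Gpx1 and Gstp1, and for 3.31% of all tested genes. They lay below for 0 members and for 3.91% of all genes. Without bottom 1 and bottom 2 the mean of Gpx1 in bottom was 564 CPM. The 2 remaining libraries were still above all of top (log2 fold change 1.06, edgeR adjusted p = 0.273). Their beta, delta and PP cell marker sums also lay outside the range of top. The part of any cell type in the level of Gpx1 was not tested. Gpx1 was called by DESeq2 (adjusted p = 0.00371), by edgeR without the low-count filter (0.0322) and by edgeR on unscaled totals (0.0475), but not by limma-trend (0.0565).

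Gpx3, the secreted peroxidase, stood at 295, 302, 611 and 277 CPM in top 1 to top 4 and at 1229.6, 1995, 340.5 and 368 CPM in bottom 1 to bottom 4. Bottom 1 and bottom 2 were high, and bottom 3 and bottom 4 lay within the range of top (edgeR log2 fold change 1.05 ± 0.58 (SE), adjusted p = 0.614). Acinar markers, 12 genes with Prss1 at 0, were also highest in top 3 among the top libraries and in bottom 2 among the bottom libraries, at 65.2, 37.9, 308 and 45.7 CPM in top 1 to top 4 and 477, 1820.2, 489.9 and 319 CPM in bottom 1 to bottom 4. Alpha and delta cell marker sums had their highest top and bottom values in these libraries too, and the part of these cell types in the level of Gpx3 was not tested. Gpx4, which reduces lipid peroxides in membranes, had a like pattern, at 127, 77.3, 115 and 73.8 CPM in top 1 to top 4 and at 455, 264, 88.7 and 85.3 CPM in bottom 1 to bottom 4 (edgeR log2 fold change 0.85 ± 0.46 (SE), adjusted p = 0.596). In batch 2 alone the fitted differences of both turned, to -0.31 for Gpx3 and -0.10 for Gpx4. Gpx2, the peroxidase typical of gut epithelium, ranged over 15.6 to 73.7 CPM in top and 25.9 to 106 in bottom, and its populations overlapped.

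Gpx8, a peroxidase of the endoplasmic reticulum membrane, was the member with the clearest presence and absence. It had 0 counts in all 4 top libraries and in bottom 1, and 179, 172 and 178 counts in bottom 2, bottom 3 and bottom 4. Because fewer than 4 libraries held counts it did not pass the low-count filter. Against a floor of 3 counts over the top libraries its bottom level was at least 125-fold higher, a bound that covers counting error only. Fibroblast and stellate cell markers, 8 genes, were low in the same 5 libraries and higher in the same 3, at 0.575, 0.251, 0.371 and 12.4 CPM in top 1 to top 4 and 3.28, 182, 194 and 771 CPM in bottom 1 to bottom 4. Endothelial markers, 9 genes, were at 0.124 to 8.26 CPM in top and at 9.94, 25.1, 40.9 and 306 CPM in bottom 1 to bottom 4. The part of either cell type in the level of Gpx8 was not tested. Sod3, the extracellular superoxide dismutase, had 0 counts in top and 212 in bottom, 203 of them in bottom 4, the library with the most fibroblast and the most endothelial transcripts, whose part was not tested. Of the other peroxidases, Gpx5 had 0 counts, Gpx6 had 2 counts, all in bottom 4, and Gpx7, another enzyme of the endoplasmic reticulum, reached 6.33 CPM in top 1.

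**Figure D4:**
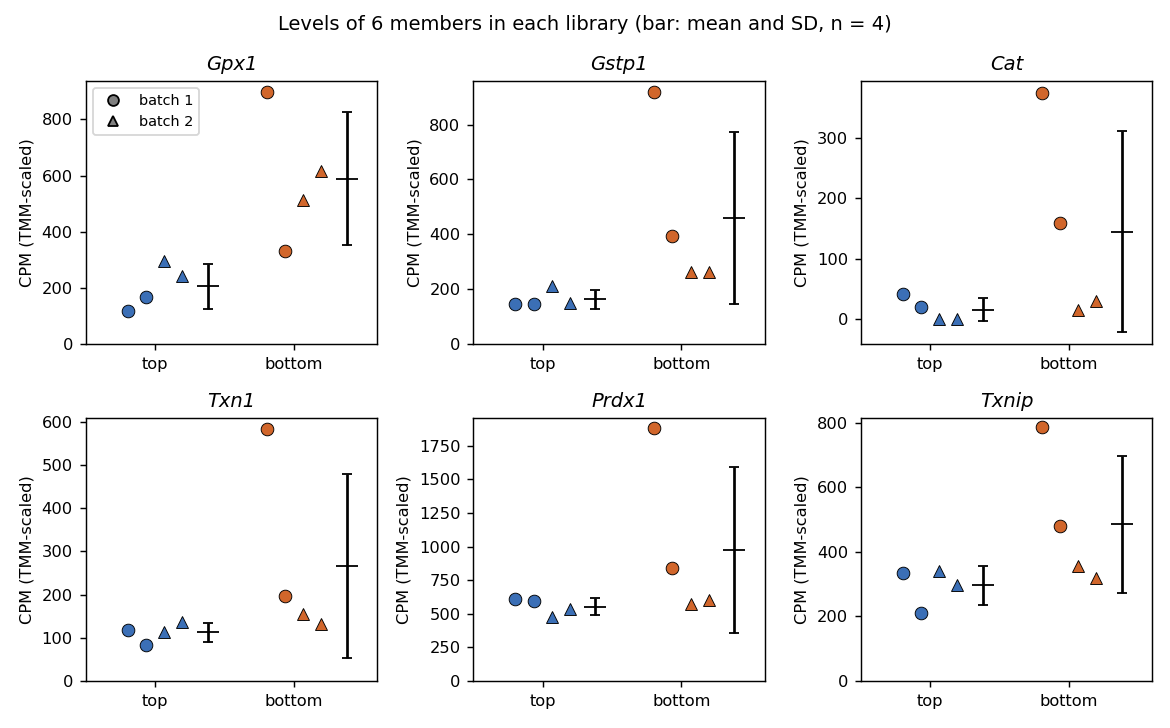
Levels of Gpx1, Gstp1, Cat, Txn1, Prdx1 and Txnip in each library, in CPM after TMM scaling, with batch 1 as circles and batch 2 as triangles; the bars give the mean and SD of 4 libraries. Only in the panels of Gpx1 and Gstp1 are all bottom libraries above all top libraries, and bottom 1 is the highest library in all 6 panels.

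Catalase came nearest to the threshold. Cat stood at 41.0, 20.7, 0 and 0.635 CPM in top 1 to top 4 and at 374, 159, 15.5 and 29.1 CPM in bottom 1 to bottom 4. Over all libraries the populations overlapped, but within each batch both bottom libraries were above both top libraries, by 3.02 in batch 1 and 4.12 in batch 2 as means of log2(CPM + 1). The means were 15.6 ± 19.5 CPM in top and 144 ± 166 in bottom (SD, n = 4), with edgeR log2 fold change 4.27 ± 0.84 (SE), adjusted p = 0.0747. With 2 of the 4 top libraries at 0 and 4 counts, the size of this fold change rests on few counts. DESeq2 (adjusted p = 3.93e-08), limma-trend (0.0204) and edgeR with no filter on low counts (0.00444) called it, and without the batch term edgeR gave 0.552. Without bottom 1 its bottom mean was 67.8 in place of 144 CPM, and without bottom 1 and bottom 2 it was 22.3 CPM, against 0 and 0.635 CPM in the top libraries of the same batch. The log2 fold change without both was 6.15 (edgeR adjusted p = 0.182).

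The populations overlapped for the intracellular superoxide dismutases. Sod1, the copper and zinc enzyme of the cytosol, stood at 185, 152, 401 and 286 CPM in top 1 to top 4 and at 390.2, 282, 308 and 257 CPM in bottom 1 to bottom 4; top 3 was the highest library (edgeR log2 fold change 0.36 ± 0.32 (SE), adjusted p = 0.801). Sod2, the manganese enzyme of mitochondria, ranged over 48.2 to 106 CPM in top and 42.6 to 96.2 in bottom. Bottom thus lay within or close to the range of top for both genes.

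Among the glutathione transferases, Gstp1, the pi-class enzyme, was likewise higher in every bottom library than in any top library. It stood at 146, 145, 214 and 149 CPM in top 1 to top 4 and at 919, 395, 262 and 265 CPM in bottom 1 to bottom 4. Top held to a narrow range apart from top 3, and each bottom library was above it, by little in bottom 3 and bottom 4. The means were 163 ± 33.5 CPM in top and 460.1 ± 312 in bottom (SD, n = 4), with edgeR log2 fold change 1.36 ± 0.41 (SE), adjusted p = 0.263, so it was not called. Its bottom mean was 307 CPM without bottom 1 and 263 CPM without bottom 1 and bottom 2, against 163 CPM in top, and the remaining libraries were still above all of top. DESeq2 called it (adjusted p = 0.0349). The close paralog Gstp2, whose promoter carries the same TGAGTCAGC as that of Gstp1, was not tested and had 5 counts in top and 419 in bottom, 353 of them in bottom 1. Since RSEM divides reads that match both, their sum is the surer value, at 147, 145, 214 and 149 CPM in top 1 to top 4 and 958, 395, 263 and 270.2 CPM in bottom 1 to bottom 4. The sums did not overlap either.

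Among other transferases, Gsta1, Gstm3 and Gsta4 were highest in bottom 1, next in bottom 2, and near 0 in bottom 3 and bottom 4. The part of intestinal transcripts in these levels was not tested. Gsta1, an alpha-class enzyme abundant in gut and liver, stood at 43.4, 1.26, 0 and 70.5 CPM in top 1 to top 4 and at 628, 83.0, 0 and 0 CPM in bottom 1 to bottom 4. Gstm3, a mu-class enzyme, stood at 53.2, 2.89, 0.247 and 15.4 CPM in top 1 to top 4 and at 946, 156, 0.105 and 0.0927 CPM in bottom 1 to bottom 4. In both, bottom 1 was highest, bottom 2 was next, and bottom 3 and bottom 4 held at most 1 count each. Within top the order differed: top 1, with 2099.9 CPM of intestinal markers, led for Gstm3, and top 4, with 775 CPM, led for Gsta1. For both genes the error of the fitted difference was larger than the difference itself. Gstm3 had edgeR log2 fold change 0.20 ± 4.07 (SE), adjusted p = 0.992, and Gsta1 had edgeR log2 fold change -1.25 ± 6.13 (SE), adjusted p = 0.97. The fitted sign of Gsta1 was opposite to the order of its means, 28.8 CPM in top and 178 in bottom. Gsta4, which conjugates products of lipid peroxidation, stood at 15.4, 0.377, 0 and 4.60 CPM in top 1 to top 4 and at 126, 45.9, 0 and 0 CPM in bottom 1 to bottom 4, which is the order of Gstm3 among the libraries above 0. Gsta2 and Gstm6, which did not pass the low-count filter, held 299 and 1659 counts in bottom 1 and at most 75 in any other library.

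The mu-class genes are close in sequence, and RSEM may divide reads between them, so their separate levels are less certain than their sum. Summed over the 7 genes the level was 356, 258, 236 and 226 CPM in top 1 to top 4 and 1985, 532, 101 and 119 CPM in bottom 1 to bottom 4. Gstm1 stood at 226, 143, 118 and 60.8 CPM in top 1 to top 4 and at 599.7, 232, 23.6 and 48.7 CPM in bottom 1 to bottom 4, so that bottom 3 and bottom 4 were lower than every top library and bottom 1 and bottom 2 higher than every one (edgeR log2 fold change -0.06 ± 0.61 (SE), adjusted p = 0.984). Gstm4 was at 11.4, 27.7, 26.3 and 47.0 CPM in top 1 to top 4 and 83.9, 68.5, 6.64 and 5.37 in bottom 1 to bottom 4, again with bottom 1 and bottom 2 above and bottom 3 and bottom 4 below all of top. Gstm2 ranged over 29.6 to 62.7 CPM in top and 22.1 to 78.5 in bottom, Gstm5 over 24.3 to 56.2 and 24.2 to 55.5, and Gstm7 over 0.377 to 3.59 and 0.737 to 39.9.

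Of the theta-class genes, Gstt1 stood at 63.6, 82.1, 71.7 and 47.2 CPM in top 1 to top 4 and at 282, 123.5, 77.2 and 87.1 CPM in bottom 1 to bottom 4, with bottom 3 below top 2 (edgeR log2 fold change 0.97 ± 0.38 (SE), adjusted p = 0.396). Gstt3 stood at 1.87, 0, 0 and 0 CPM in top 1 to top 4 and at 72.4, 4.77, 1.79 and 0.0927 CPM in bottom 1 to bottom 4. Its 732 counts in bottom included 663 in bottom 1 (edgeR log2 fold change 5.47 ± 1.71 (SE), adjusted p = 0.276). Gstt2 ranged over 0 to 20.3 CPM in top and 13.1 to 40.7 in bottom, and Gstt4 had 0 counts. The omega-class gene Gsto1 reached 173 and 127 CPM in bottom 1 and bottom 2, above 27.5 CPM as the highest top level, with 5.37 and 21.5 CPM in bottom 3 and bottom 4. Gsto2 ranged over 0.144 to 23.1 CPM in top and 0 to 31.8 in bottom. Gstk1, the kappa-class enzyme of mitochondria and peroxisomes, was at 102 and 22.0 CPM in bottom 1 and bottom 2 and at 1.05 and 0.649 CPM in bottom 3 and bottom 4, with 0.794 to 18.9 CPM in top. Gsta3 went its own way, with 44.6 CPM in bottom 4 and at most 9.16 CPM elsewhere.

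**Figure D5:**
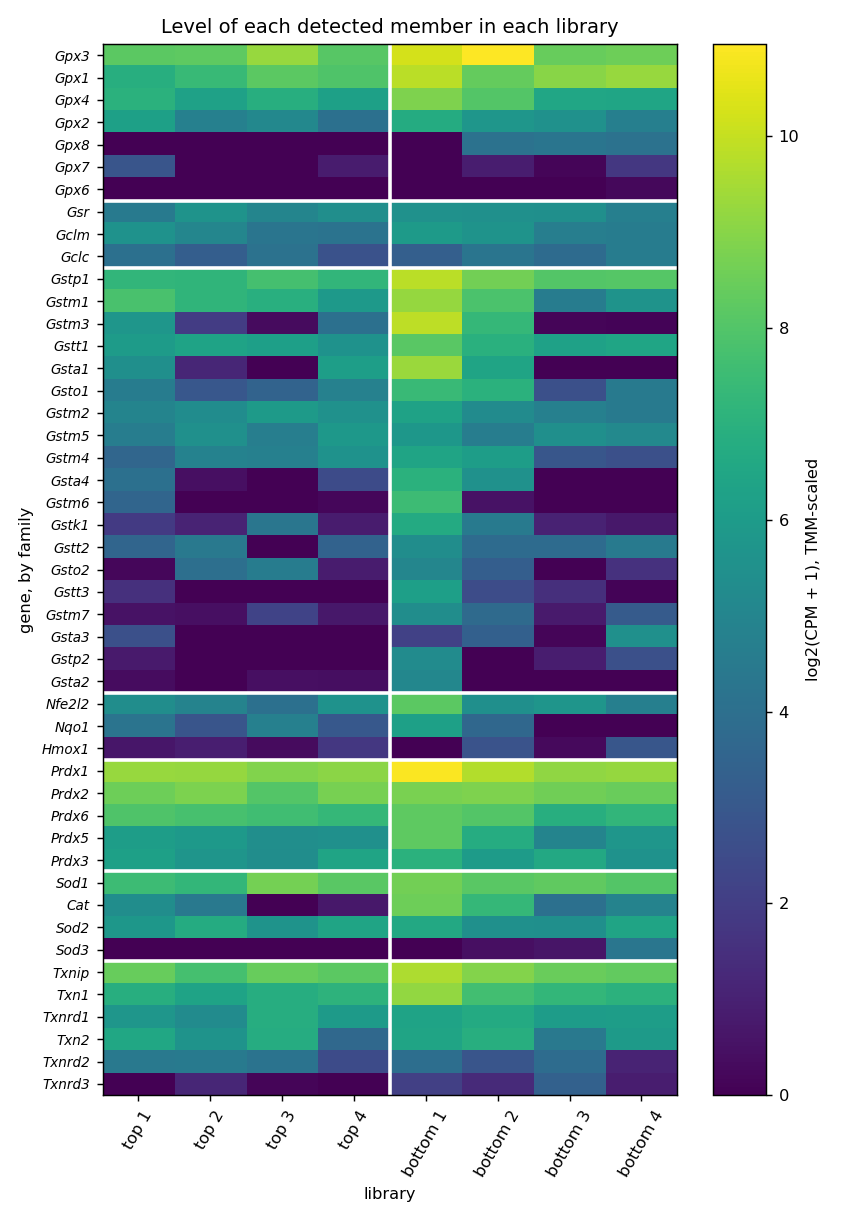
Level of each of the 47 members with at least 1 count, as log2(CPM + 1) after TMM scaling, in the 4 top and 4 bottom libraries; rows are grouped by family and white lines part the families and the populations. Rows such as Gsta1, Gstm3 and Gsta4 are bright in bottom 1 and bottom 2 and dark in bottom 3 and bottom 4, whereas the rows of Prdx2, Sod2 and Gsr change little across the libraries.

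Among the 5 peroxiredoxins the populations overlapped, and bottom 1 was the highest library for all but Prdx2. Prdx1, of the cytosol, stood at 610.0, 592, 472 and 537 CPM in top 1 to top 4 and at 1883, 841, 571 and 601 CPM in bottom 1 to bottom 4. Bottom 1 and bottom 2 were above all of top, and bottom 3 and bottom 4 lay within its range (edgeR log2 fold change 0.70 ± 0.31 (SE), adjusted p = 0.482). Prdx2, the other main cytosolic form, stood at 372, 443, 262 and 417 CPM in top 1 to top 4 and at 426, 459, 378 and 355 CPM in bottom 1 to bottom 4 (edgeR log2 fold change 0.11 ± 0.23 (SE), adjusted p = 0.924). Its 8 libraries lay close together. Prdx6, which also acts as a phospholipase, stood at 243, 219, 191 and 157 CPM in top 1 to top 4 and at 301, 259.6, 118 and 149.7 CPM in bottom 1 to bottom 4, with the lowest value in bottom 3 (edgeR log2 fold change -0.05 ± 0.25 (SE), adjusted p = 0.971). Prdx3, of mitochondria, ranged over 40.3 to 83.5 CPM in top and 46.8 to 128 in bottom. Prdx5, found in several organelles, was at 299.6 and 108 CPM in bottom 1 and bottom 2 and at 29.7 and 52.9 CPM in bottom 3 and bottom 4, with 41.9 to 66.8 CPM in top. The library kit does not mark strand, so antisense reads count toward a gene they overlap. In a GENCODE annotation exons of Prdx2 overlap those of Junb and Rnaseh2a, and exons of Prdx5 those of Trmt112.

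In the thioredoxin system, Txn1, the cytosolic thioredoxin, stood at 118, 82.1, 114 and 135 CPM in top 1 to top 4 and at 583, 196, 154 and 132 CPM in bottom 1 to bottom 4. Bottom 4 lay below top 4, so the populations overlapped (edgeR log2 fold change 1.08 ± 0.47 (SE), adjusted p = 0.465). Without bottom 1 its bottom mean was 161 CPM in place of 266, against 112 CPM in top. Txnip, the thioredoxin-binding protein raised by glucose in beta cells, stood at 336, 211, 341 and 297 CPM in top 1 to top 4 and at 787, 481, 356 and 319 CPM in bottom 1 to bottom 4. Bottom 1 and bottom 2 were above all of top, and bottom 4 was below top 1 and top 3 (edgeR log2 fold change 0.65 ± 0.32 (SE), adjusted p = 0.543). Exons of Txnip overlap those of Gm15441 on the other strand. Txnrd1, the cytosolic reductase, ranged over 38.0 to 112 CPM in top and 65.2 to 104 in bottom. The mitochondrial pair gave 12.2 to 111 CPM in top and 20.4 to 116 in bottom for Txn2, and 4.60 to 21.6 and 1.11 to 14.7 CPM for Txnrd2. Txnrd3, a reductase best known from testis, had 11 counts in top and 147 in bottom and was not tested.

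The populations overlapped for the genes that make and restore glutathione. Gclc, the catalytic subunit of glutamate-cysteine ligase, ranged over 5.72 to 16.3 CPM in top and 8.85 to 23.1 in bottom, Gclm, its modifier, over 16.8 to 47.5 and 23.3 to 61.3, and Gsr over 21.9 to 48.0 and 25.9 to 45.3. For NRF2 itself, Nfe2l2 stood at 40.3, 29.3, 15.3 and 46.5 CPM in top 1 to top 4 and at 289, 42.4, 51.3 and 25.9 CPM in bottom 1 to bottom 4. Bottom 1 was far above the rest, and the other bottom libraries lay close to or within the range of top (edgeR log2 fold change 1.29 ± 0.71 (SE), adjusted p = 0.608). Without bottom 1 the log2 fold change was 0.30. Nqo1, a quinone reductase and a standard NRF2 target, stood at 17.8, 6.40, 26.2 and 7.14 CPM in top 1 to top 4 and at 73.1, 11.8, 0 and 0 CPM in bottom 1 to bottom 4. Its 2 lowest values were bottom 3 and bottom 4, with 0 counts each, and its highest was bottom 1. Hmox1, the inducible heme oxygenase, had 28 counts in top and 137 in bottom, at most 6.67 CPM, and was not tested.

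Related genes of the pathway, 107 in 7 lists, gave no call either: of 81 tested genes 0 were called by edgeR, 16 had an unadjusted p under 0.05 (9 higher and 7 lower in bottom, beside 10.3% of all genes), and the fitted difference was positive for 49. DESeq2 called 6, beside 5.23% of all genes, and limma-trend 2, beside 1.17%. The median log2 fold change was 0.25. Bottom lay above top without overlap for 4 of the 81 (Glo1, Mgst1, Abcc3 and Osgin1) and below it for 4 (Mthfd2, Abcc1, Park7 and Maob), 9.88% together, beside 7.22% of all tested genes. By list, the numbers positive were 8 of 11 for glutathione turnover, 7 of 16 for NADPH supply, 13 of 21 for redox repair, 4 of 6 for other glutathione transferases, 5 of 10 for regulators of NRF2, 9 of 13 for other NRF2-linked genes and 3 of 4 for sources of superoxide and peroxide.

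Abcc3, an exporter of conjugated compounds, stood at 1.44, 0, 0 and 0 CPM in top 1 to top 4 and at 15.3, 47.7, 13.6 and 16.7 CPM in bottom 1 to bottom 4 (edgeR adjusted p = 0.109). Mgst1, a membrane-bound transferase, stood at 29.8, 0.628, 0 and 4.92 CPM in top 1 to top 4 and at 484, 129, 33.0 and 57.4 CPM in bottom 1 to bottom 4. Osgin1, an NRF2 target, stood at 3.74, 0.753, 0 and 2.54 CPM in top 1 to top 4 and at 146, 56.7, 7.37 and 8.06 CPM in bottom 1 to bottom 4. Bottom 1 was the highest library for both Mgst1 and Osgin1. Glo1, a glyoxalase that uses glutathione to clear methylglyoxal, stood at 199.7, 209.7, 247 and 182 CPM in top 1 to top 4 and at 568, 252, 362 and 259.8 CPM in bottom 1 to bottom 4. Maob, a monoamine oxidase that produces hydrogen peroxide, was lower in every bottom library than in any top library, at 251, 218, 354 and 216 CPM in top 1 to top 4 and at 139, 60.7, 26.9 and 38.7 CPM in bottom 1 to bottom 4 (edgeR adjusted p = 0.109). Park7, which encodes DJ-1 and protects against oxidative stress, was also lower in each, at 378, 421, 304 and 287 CPM in top 1 to top 4 and at 228, 247, 139 and 266 CPM in bottom 1 to bottom 4. Over all 8 libraries the main edgeR test called none of these genes. DESeq2 called Abcc3 (adjusted p = 2.12e-06), Osgin1 (0.000804), Maob (0.00111) and Abcc1 (0.0441). It also called Maff (0.0262) and G6pdx (0.0384), both higher in bottom with populations that overlapped. Limma-trend called Abcc3 (0.0168) and Maob (0.0298), and edgeR with no filter on low counts called Abcc3 (0.0228), Maob (0.0170) and Mgst1 (0.0335). Maob was also called without bottom 1 (edgeR adjusted p = 0.0206) and without bottom 1 and bottom 2 (0.0285). The exporter Abcc1 ranged over 13.5 to 18.9 CPM in top and 0.546 to 7.23 in bottom, and Mthfd2, a mitochondrial folate enzyme, over 56.8 to 113 and 4.15 to 50.4.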

How the data were processed

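Per the labels' protocols, complementary DNA was amplified from about 1000 sorted cells with a SMARTer kit and made into Nextera XT libraries, which do not mark strand. The deposited values are expected counts per gene, estimated by RSEM, which divides reads that match several genes. The submitters' processing notes list RSEM, edgeR and the mouse build mm9; the annotation is not given in the sources used here. Of the deposited values 34.8% were not whole.

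Expected counts were rounded, and genes were kept by filterByExpr with the population as group. TMM factors were computed, and edgeR 4.0.16 (R 4.3.3) fitted a quasi-likelihood model with batch and population. Benjamini-Hochberg adjustment ran over all 11721 tested genes, with a call at an adjusted p under 0.05. Log2 fold changes are bottom minus top, and the SE was taken from the F statistic. CPM are counts over TMM-scaled library totals and are not scaled for gene length, so levels of different genes are not compared. Depth ranged from 6657639 to 11262368 counts, tested genes held at least 98.0% of each total, and the common biological coefficient of variation was 0.806. Scripts were tested on simulated data.

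DESeq2 1.42.0, limma 3.58.1, other scalings and filters, a fit without batch, single batches and fits without libraries were alternatives. Motifs were searched in RefSeq promoters of GRCm38.p6. Antisense overlaps were read from a GENCODE annotation of GRCm38, by name only. Members and lists, the intestinal markers included, were chosen with earlier results of these data known. Every member is accounted for: values in every library were given for members called, without overlap, or with a mean of at least 100 CPM, for Nfe2l2 and Txnip, and for members picked after their values were seen (Cat, Gstm3, Gsta1, Gsta4, Gstm4, Gstt1, Gstt3 and Nqo1 where below that level).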

Additional observations from a re-analysis of the deposited data

Results flagged for a closer look

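Among 76 groups of 4 libraries (38 members in each population), 13 held a library set apart from the other 3. There a gap took up most of the group's range (Dixon's ratio above its 95% critical value). The rate of 1 in 20 behind that value assumes normal values in independent groups. Members share the same libraries and their CPM were not checked for normality, so the 13 cannot be set against that rate. Bottom 1 was the library set apart, above the other bottom libraries, for Gstm3 (946 CPM), Gsta1 (628 CPM), Gstt3 (72.4 CPM), Nfe2l2 (289 CPM), Nqo1 (73.1 CPM) and Txn1 (583 CPM). That library also held 32398 CPM of intestinal markers, whose part in these levels was not tested.

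Top 3 was set apart, above the other top libraries, for Gpx3 (611 CPM), Gstp1 (214 CPM), Gstk1 (18.9 CPM) and Gstm7 (3.59 CPM). Its intestinal markers summed to 66.5 CPM, the lowest of the top libraries, while its acinar markers summed to 308 CPM against 37.9 to 65.2 in the others and its alpha cell markers to 138420.0 CPM against 65543 to 92328; their part was not tested. Top 1 was the only top library with counts of Gstt3 (1.87 CPM) and of Gsta3 (5.47 CPM). Gsr was the only member set apart by a low value, at 25.9 CPM in bottom 4.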

How the results depend on the processing

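The number of members called was 0 under the RLE and upper-quartile scalings, the stricter filter, the fit without batch, each batch alone and every fit that left out libraries. It was 1 on total counts, 3 without the low-count filter, 4 with DESeq2 and 1 with limma-trend. Pathway genes called were 0, with 3 without the filter, 6 with DESeq2, 2 with limma-trend, 0 to 1 when 1 library was left out and 1 without bottom 1 and bottom 2. Genes called over the whole table were 52, with 204 without the filter, 589 with DESeq2, 137 with limma-trend, 32 without batch, 2 in batch 1 alone and 2 in batch 2 alone, and 8 to 60 when 1 library was left out. Total counts moved the median of all genes to 0.34 and the share of calls that were higher from 63.5% (33 of 52) to 77.5% (55 of 71).

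Some log2 fold changes changed sign. Prdx6 (-0.05) was 0.0019 with RLE, 0.28 on total counts, 0.0022 with DESeq2, 0.031 without batch, 0.25 in batch 1 alone and -0.17 to 0.074 with 1 library left out. Gstm1 (-0.06) was 0.27 on total counts, 0.72 without batch, 1.15 in batch 1 alone and -0.62 to 0.43 with 1 library left out. Gsta1 (-1.25) was 0.35 with limma-trend, 2.63 without batch, 3.96 in batch 1 alone and -5.93 to 3.94 with 1 library left out. Gstm3 (0.20) was -0.76 with DESeq2, -6.10 without bottom 1 and bottom 2 and -3.05 to 3.71 with 1 library left out. In batch 2 alone Gpx3 was -0.31, Gpx4 -0.10 and Sod1 -0.27, and without bottom 1 and bottom 2 they were -0.33, -0.12 and -0.29. Prdx2 (0.11) ranged over -0.020 to 0.25 with 1 library left out. The cause was not tested. In single batches a population has 2 libraries, and in the fit without bottom 1 and bottom 2 the batch 1 libraries of top have no bottom partner. The difference in that fit is thus the one within batch 2 and is no separate check of batch 2 alone.

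The labels' titles give a number to each library, and number 1 alone occurs in both populations, once in each batch; no label says that it marks a shared source. A fit on these 4 libraries with a replicate block, added after seeing the data, called 0 genes, 0 members and 0 pathway genes, and gave Gsta1 as 3.79. Cat kept a log2 fold change of 4.25 to 4.45 without the filter, with DESeq2 and with limma-trend, where its adjusted p was under the threshold; Gstt3 was 3.29 with limma-trend against 5.47. With 4 libraries a population and a coefficient of variation of 0.806, small differences were not detectable.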
